A study of Mus musculus with 15 samples.

Results

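The genes described here carry symbols of the replication-dependent histone clusters of the mouse. A symbol alone does not show that a gene is replication-dependent. The genes are all 70 of 36144 symbols in the deposited gene table that begin with Hist1h, Hist2h, Hist3h or Hist4h. They comprised 20 H2A, 19 H2B, 12 H3 and 13 H4 genes, which are the 64 core histone genes, and 6 H1 genes, which encode linker histones and are not core histones. By annotation 67 were protein coding and 3 were pseudogenes. The Hist1 cluster on chromosome 13 held 56 of them, the Hist2 cluster on chromosome 3 held 10, the Hist3 cluster on chromosome 11 held 3 and Hist4 was 1 gene. All were read in 15 poly(A)-selected, low-input libraries of lumbar motor neurons (L1 to L3) that had been labelled with cholera toxin subunit B and cut out by laser capture at postnatal day 6.

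The libraries formed 5 groups of 3 biological replicates on an FVB background, and whether animals were pooled for a library was not given in the sources used here. WT denotes vehicle-treated littermates of genotype Smn+/+;SMN2;SMNΔ7, and SMA denotes vehicle-treated mice of genotype Smn-/-;SMN2;SMNΔ7, so every group carried the human SMN2 and SMNΔ7 transgenes and only SMA mice lacked the mouse gene. The other 3 groups were SMA mice given MW150 at 5 mg/kg, Pifithrin-alpha at 2.2 mg/kg or SMN-C3 at 3 mg/kg, injected intraperitoneally each day from postnatal day 0. MW150 inhibits p38 MAP kinase, Pifithrin-alpha inhibits p53, and SMN-C3 promotes inclusion of the last coding exon of SMN2. Males and females were used in equal proportions.

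Replication-dependent histone genes are transcribed mainly in S phase, and their mRNAs end in a conserved stem-loop in place of a poly(A) tail. The stem-loop is bound by SLBP, and the 3′ end is cut with the help of the U7 snRNP, a small nuclear ribonucleoprotein whose ring of Sm and Sm-like proteins is assembled by the SMN complex. A neuron that no longer divides makes most of its histones from replication-independent genes, and some clustered histone genes also give longer, polyadenylated mRNAs. A poly(A)-selected library therefore samples the second kind of transcript by design and the stem-loop kind only in part.

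The stem-loops of 8 of the most abundant members are shown because the text returns to them: these are the ends that U7-dependent cutting would leave, and what lies beyond them in the annotated transcript differs between members. Each is written 5′ to 3′ on the strand of the mRNA, with the stem-loop in capitals, from GENCODE M21 transcripts on GRCm38.
Hist1h2ap, chr13:21833026-21833049, minus strand: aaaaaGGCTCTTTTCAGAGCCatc
Hist3h2ba, chr11:58949344-58949373, plus strand: ccaaaGGCTCTTTTCAGAGCCaccttccaa
Hist2h2aa1, chr3:96246027-96246056, plus strand: aaaaaGGCTCTTTTCAGAGCCacccactga
Hist3h2a, chr11:58955167-58955196, plus strand: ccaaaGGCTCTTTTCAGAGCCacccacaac
Hist1h1c, chr13:23739507-23739536, plus strand: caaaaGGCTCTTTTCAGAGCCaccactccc
Hist1h4h, chr13:23531453-23531482, plus strand: ccaaaGGCCCTTTTCAGGGCCgcccacatt
Hist1h4d, chr13:23581945-23581974, plus strand: ccaaaGGCCCTTTTCAGGGCCactaccttc
Hist1h4i, chr13:22040957-22040986, minus strand: ttaaaGGCCCTTTTTAGGGCCaccacaaaa

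The annotated transcript of Hist1h2ap stopped 3 bases after its stem-loop, as a fully processed histone mRNA does. That of Hist2h2aa1 went on for 35 bases, Hist1h4h for 46, Hist3h2ba for 169, Hist1h4i for 330, Hist1h4d for 770, Hist1h1c for 840 and Hist3h2a for 1643. A match to the histone stem-loop, searched on the transcript strand only, was found in 46 of the 70 genes. The most common form was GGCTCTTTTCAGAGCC, in 26 genes, followed by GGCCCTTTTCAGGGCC in 7 and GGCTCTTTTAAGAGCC in 6. Among transcripts, 61.5% of those of the members held a match, against 0.0411% of 116650 transcripts of other genes. The motifs AATAAA or ATTAAA, read on the same strand in the last 40 bases of the transcript, mark a poly(A) signal. Read in the transcript of highest mean TPM of each gene, they were present in 14 genes and absent there from 56. Of these 56, the H2B genes Hist1h2bp, Hist1h2bq and Hist1h2br held a signal in a less abundant transcript. Of all member transcripts 26.9% held one there, against 33.4% of other transcripts, and these matches describe letters in the annotation and not the ends of the RNA sequenced.

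Levels are given in TPM (transcripts per 1000000 transcripts of a library), a unit that allows for transcript length, so genes can be set side by side. The summed TPM of the 70 genes had a mean of 783 over the 15 libraries, and 12 genes made up 94.7% of it. Hist1h2ap, an H2A gene, was the highest with a mean of 317 TPM and 40.5% of the sum. It was followed by Hist3h2ba (H2B, 111 TPM), Hist2h2aa1 (H2A, 101 TPM), Hist3h2a (H2A, 58.6 TPM) and Hist1h2bc (H2B, 54.6 TPM). The linker gene Hist1h1c had a mean of 37.2 TPM. The H4 genes Hist1h4h and Hist1h4d had 18.8 and 15.3 TPM, and below them came Hist1h2ae (H2A, 8.62 TPM), the linker gene Hist1h1e (8.40 TPM), Hist1h4i (H4, 6.33 TPM) and Hist1h2br (H2B, 4.43 TPM). No H3 gene was among the 12.

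The low end held most of the genes: 46 of the 70 had a mean under 1 TPM, 13 had 1 to 5 TPM and 11 had at least 5 TPM. Only 17 were above 0 in all 15 libraries, and Hist1h2ba, an H2B gene, was listed at 0 in all of them. The poly(A) signal, read in this way, was present in 6 of the 11 most abundant genes (Hist3h2ba, Hist3h2a, Hist1h1c, Hist1h4h, Hist1h2ae and Hist1h4i) and absent from Hist1h2ap, Hist2h2aa1, Hist1h2bc, Hist1h4d and Hist1h1e. The median of the mean levels was 1.23 TPM in the 14 genes with the signal and 0.365 TPM in the 56 without it.

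**Figure D1:**
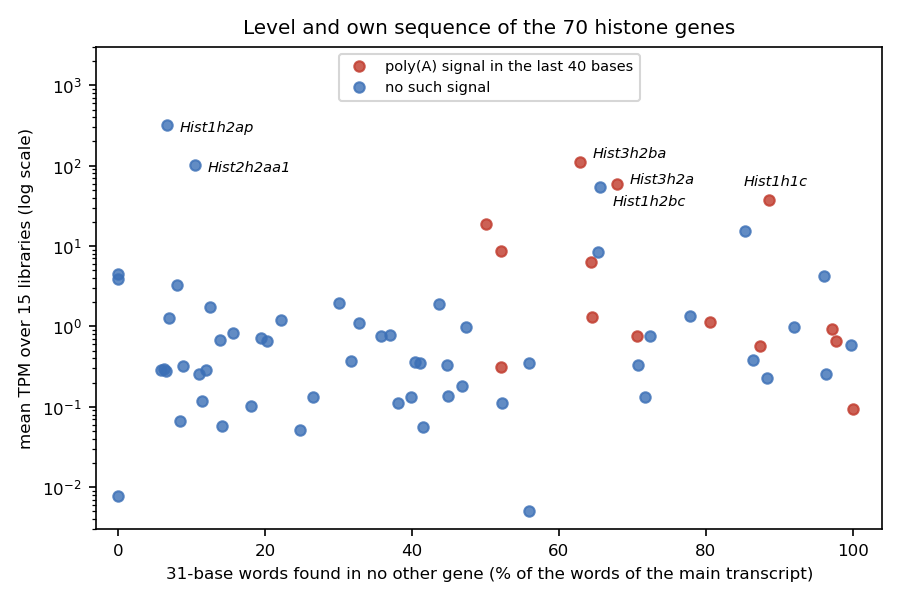
Mean TPM over 15 libraries (log scale, vertical) against the percentage of a gene's 31-base words that no other gene holds (horizontal), for the 70 histone genes; 1 point is a gene, red where its transcript of highest mean TPM has a poly(A) signal in its last 40 bases. Hist1h2ba, listed at 0, is drawn at the lower edge, and the upper left shows the 2 genes at 317 and 101 TPM that share most of their sequence with a near-identical copy.

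Because the copies of a histone gene are near identical, a level assigned to a symbol can belong to another. In 40 of the 70 genes fewer than 50% of the 31-base words of the transcript were found in no other gene. Hist1h2ap had 6.64% of its own and shared 93.4% with Hist1h2ao, which was listed at 0 in all libraries but SMA+Pifithrin-alpha 3 (3.80 TPM) and SMA+SMN-C3 3 (0.588 TPM). Hist2h2aa1 shared 89.6% with Hist2h2aa2, and Hist1h2br shared 100% with Hist1h2bq. The values of these genes are therefore those of a group of copies whose split is uncertain. On the same strand 7 members overlap another gene, among them Hist2h2aa1 (Gm20634), Hist3h2a (Trim17) and Hist1h1e (Hist1h2be and Gm11398). Their reads cannot be told apart where they coincide. On the other strand 23 members overlap another gene, Hist1h2ap (Gm44466) among them. Own sequence was larger for Hist1h1c (88.6%), Hist1h4d (85.3%), Hist3h2a (67.9%), Hist1h2bc (65.5%), Hist1h4i (64.4%) and Hist3h2ba (62.8%). It was 50% for Hist1h4h, which shared 44.8% with Hist1h4j. For the genes named below that are not among the 12 highest, it was 77.8% in Hist1h4c. In the others it lay between 6.82% (Hist1h3i) and 47.3% (Hist2h2ac), so their levels are uncertain in the same way.

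The libraries differed in ways that touch every histone value. Between 12311 and 14916 genes reached 1 TPM in a library. The share of mitochondrial genes was 21.9% in WT 1, 20.4% in SMA+Pifithrin-alpha 3 and between 3.76% and 12.6% in the other libraries. Smn1, the gene deleted in SMA mice, was between 8.97 and 23.3 TPM in WT, against at most 0.462 TPM in SMA (log2 change -3.84, SE 0.42, limma, Benjamini-Hochberg adjusted p 1.5e-04). The 7 motor neuron markers, such as the choline acetyltransferase gene Chat (36.6 to 133 TPM), were summed at 1540 to 4391 TPM, with the lowest sums in SMA+Pifithrin-alpha 3 and WT 1. In such material fewer cells of a type and less RNA per cell cannot be told apart.

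The first comparison asks how histone gene levels differ between SMA and WT motor neurons, where SMN is low. The summed TPM of the 70 genes was 430.0, 865 and 653 in the WT libraries and 722, 1389 and 850.3 in the SMA libraries. WT 2 lay above SMA 1 and SMA 3, so the groups overlapped. The means were 649 ± 217 and 987 ± 354 TPM (SD, with n = 3 for this and every later group), a log2 ratio of 0.60 against a spread between replicates of 0.50, and a sum over chosen genes is given without a test. Without Hist1h2ap the SMA libraries (430 to 694 TPM) all lay above the WT libraries (270.4 to 395 TPM), but they overlapped after median-of-ratios scaling.

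**Figure D2:**
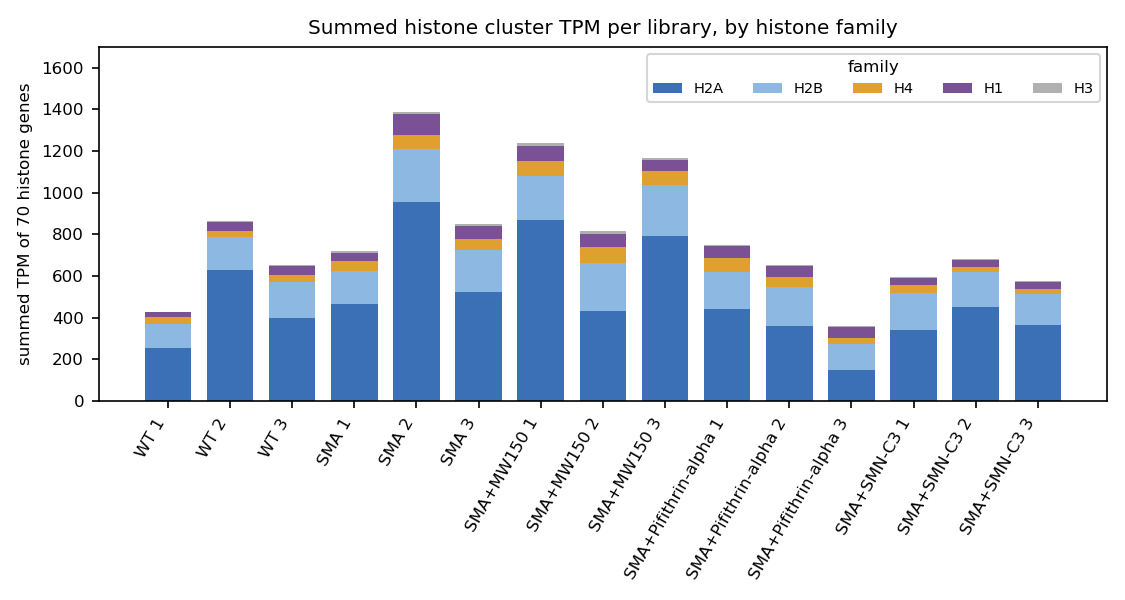
Summed TPM of the 70 histone genes in each of the 15 libraries (bars from 0), split by histone family. SMA 2 is the highest at 1389 TPM and SMA+Pifithrin-alpha 3 the lowest at 359 TPM, and H2A, in blue, makes up most of each bar except in SMA+Pifithrin-alpha 3.

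By family, the H4 and H3 sums were apart between SMA and WT. H4 genes summed to 30.9 to 34.2 TPM in WT and 48.1 to 67.1 TPM in SMA, and H3 genes to 3.08 to 6.93 TPM and 8.46 to 13.0 TPM. In both families every SMA library was above every WT library, in the deposited TPM and under both other scalings (median-of-ratios, and mitochondrial genes removed). The H2A sum (256 to 627 TPM in WT, 466 to 954 TPM in SMA), the H2B sum (113 to 173 and 157 to 258 TPM) and the H1 sum (22.9 to 42.5 and 40.6 to 96.2 TPM) overlapped between the groups.

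The genes were also summed by the presence of a poly(A) signal in their transcript of highest mean TPM. The 14 genes with a signal summed to 155, 202 and 220.1 TPM in WT and to 238, 358 and 282 TPM in SMA. All SMA libraries were above all WT libraries, and this also held under both other scalings. The 56 genes without a signal in that transcript summed to 274, 662 and 433 TPM in WT and to 484, 1031 and 568 TPM in SMA. Here WT 2 lay above SMA 1 and SMA 3. The means with a signal were 193 ± 33.3 TPM in WT and 293 ± 60.4 TPM in SMA. Those without a signal were 457 ± 195 and 694 ± 295 TPM, so their overlap goes with a wider spread. With a signal in any transcript counted, 17 genes had one, and their sum was again higher in all SMA libraries (246 to 367 TPM) than in all WT libraries (159 to 231 TPM), while the other 53 overlapped. The log2 ratio of SMA to WT was 0.59 for these 17 genes and 0.61 for the other 53, which are close. Whether the 2 sums differed from each other in their change was not tested.

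**Figure D3:**
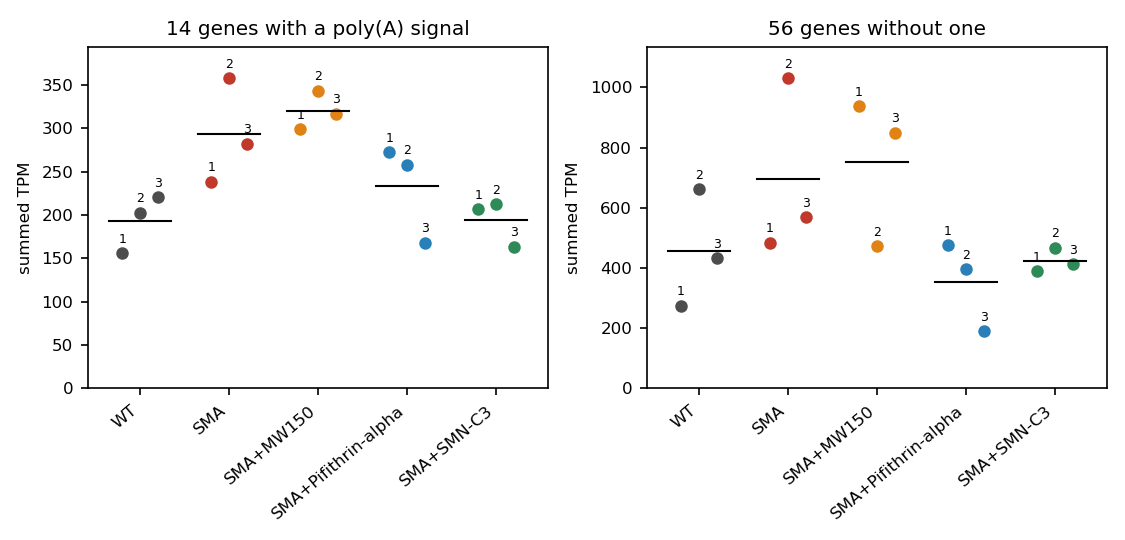
Summed TPM per library (vertical axes from 0) of the 14 histone genes with a poly(A) signal in their transcript of highest mean TPM (left) and the 56 without one there (right), by group; the number at a point is the replicate and the line is the group mean. On the left the WT libraries reach 220.1 TPM and the SMA libraries begin at 238 TPM, while on the right WT 2 lies among the SMA libraries. The WT and SMA means are 193 and 293 TPM on the left and 457 and 694 TPM on the right.

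Of the 70 genes, 36 reached 1 TPM in at least 3 libraries and were tested, and 34 were too low. A gene that passed only through a group where it was high had to differ, so the counts over the 36 describe them and are not support. None of the 36 was called between SMA and WT by limma at a Benjamini-Hochberg adjusted p under 0.05 over 15425 genes, where 0.363% of all tested genes were called. At an unadjusted p under 0.05, 7 were higher and 0 lower, or 7 of 36, against 10.6% of all tested genes higher and 2.88% lower. The median change of the 36 was 0.49 on the log2(TPM+1) scale and that of all tested genes 0.24, with 29 above 0 and 7 below, against 66.5% of all tested genes above 0. In 7 genes every SMA library was above every WT library and in 0 below, against 14.5% and 3.81% of all tested genes. Of these 7, 5 stayed apart after median-of-ratios scaling and 6 with mitochondrial genes removed. Fold changes of low genes are understated on this scale.

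Hist1h4i, an H4 gene with a stem-loop and a poly(A) signal, was listed at 0 in WT 1 and was at 2.60 and 4.73 TPM in the other WT libraries. It was at 7.81, 9.04 and 11.0 TPM in the SMA libraries, all above WT. The log2 change was 1.89 (SE 0.55), with an adjusted p of 0.20 by limma with Benjamini-Hochberg adjustment, and it was not called. Without WT 1, where it was listed at 0, the change was 1.17.

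Hist1h4h, the most abundant H4 gene, was at 12.9, 7.33 and 12.1 TPM in WT, against 22.0, 24.7 and 26.95 TPM in SMA. Every SMA library exceeded every WT library. The log2 change was 1.15 (SE 0.36, adjusted p 0.23, limma). It was the gene whose call depended on the weighting of libraries: with array weights, which lower the influence of libraries that vary more, the adjusted p was 0.025 and the change 1.41, in a fit that called 1.05% of all tested genes, whereas without weights and over the other settings the adjusted p was up to 0.45. Hist1h4d, the other abundant H4 gene, was at 12.9, 18.0 and 10.9 TPM in WT, against 12.3, 23.9 and 12.4 TPM in SMA, so its groups overlapped.

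Hist1h1c encodes the linker histone H1.2 and was at 13.8, 28.0 and 28.5 TPM in WT, against 28.2, 68.2 and 51.1 TPM in SMA. SMA 1 fell just below WT 3, so the groups overlapped, with a log2 change of 1.02 (SE 0.33, adjusted p 0.24, limma). The other linker gene among the abundant members, Hist1h1e, was at 7.84 to 8.49 TPM in WT, against 7.51 to 17.6 TPM in SMA.

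Among the H2A genes, Hist2h2aa1 was at 40.6, 87.7 and 71.7 TPM in WT, against 90.4, 152 and 134 TPM in SMA. The groups were apart in the deposited TPM by the small gap between WT 2 and SMA 1, and they overlapped under both other scalings. The log2 change was 0.94 (SE 0.35, adjusted p 0.31, limma). Hist3h2a was at 48.1, 40.3 and 55.0 TPM in WT, against 64.1, 70.4 and 68.2 TPM in SMA, with a narrow spread in SMA. Its groups were apart under every scaling, but after median-of-ratios scaling only by a very small gap between WT 1 and SMA 1. Its log2 change was 0.50 (SE 0.23, adjusted p 0.36, limma). Hist1h2ab, a low H2A gene, was at 0 to 0.200 TPM in WT and 0.207 to 4.96 TPM in SMA (log2 change 1.29, SE 0.52, adjusted p 0.34, limma), and its groups overlapped after median-of-ratios scaling.

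Hist1h2ap, the most abundant member, did not separate the groups: it was at 159.5, 469.6 and 259 TPM in WT, against 293, 695 and 305 TPM in SMA. WT 2 lay above SMA 1 and SMA 3. Its log2 change of 0.56 (SE 0.55, adjusted p 0.62, limma) was close to its standard error. Hist1h2ae, a lower H2A gene, was at 6.03 to 15.02 TPM in WT and 5.50 to 13.3 TPM in SMA. The low H2A genes Hist1h2ai (0 to 6.32 TPM in WT, 2.07 to 8.44 TPM in SMA) and Hist1h2ak (0 to 1.25 and 1.24 to 6.72 TPM) overlapped as well.

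Of the H2B genes, Hist3h2ba was at 62.8, 102.6 and 109 TPM in WT, against 106, 163 and 114 TPM in SMA, and the groups overlapped (log2 change 0.49, SE 0.33, adjusted p 0.48, limma). Hist1h2bc, whose transcript held no stem-loop match, was at 44.6, 40.8 and 46.9 TPM in WT, against 37.1, 75.1 and 69.5 TPM in SMA. SMA 1 was below all WT libraries while SMA 2 and SMA 3 were above them (log2 change 0.39, SE 0.27, adjusted p 0.49, limma). The low genes Hist1h2bg (0 to 1.32 TPM in WT, 2.23 to 2.97 TPM in SMA) and Hist1h2bj (0 to 0.421 and 0.831 to 2.62 TPM) were apart under every scaling. For Hist1h2bg the log2 change was 1.15 (SE 0.49, adjusted p 0.35, limma). Hist1h2br, at 1.45 to 5.68 TPM in WT and 1.41 to 4.33 TPM in SMA, overlapped.

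**Figure D4:**
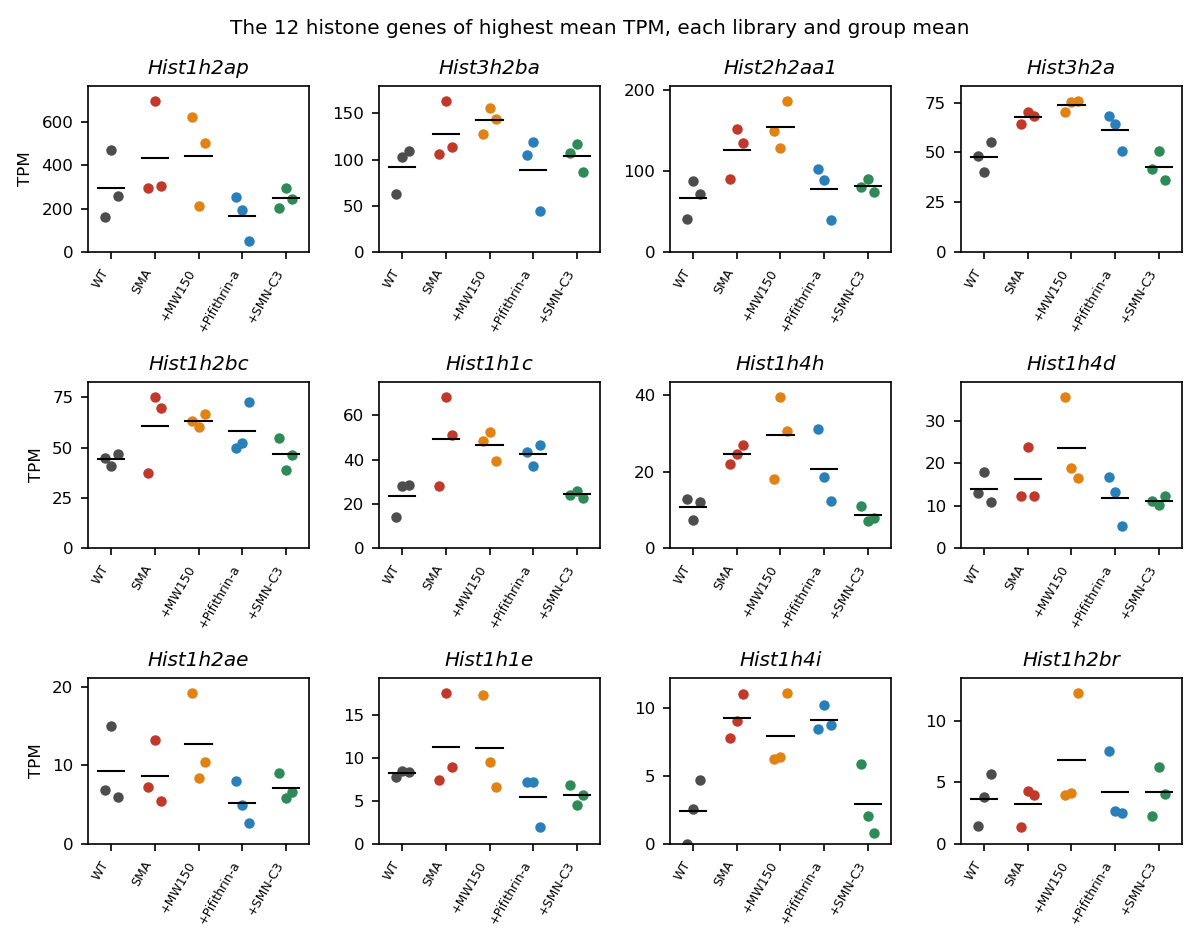
TPM in each library (points, 3 per group, linear axes from 0) and group mean (line) of the 12 histone genes of highest mean TPM; the treated groups are SMA mice given the named compound. Hist1h4h, Hist1h4i and Hist3h2a have all SMA points above all WT points and all SMN-C3 points below all SMA points, whereas Hist1h2ap ranges from 49.1 to 695 TPM and its WT and SMA points overlap.

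The next question is how the libraries of SMN-C3-treated mice, in which SMN2 splicing was targeted, differed from SMA. The comparisons of treated with SMA libraries share the SMA libraries with each other and with the comparison above, so they are not independent of it. The summed TPM was 596, 680 and 575 in SMA+SMN-C3, with a mean of 617 ± 55.6 TPM, and all 3 were below the lowest SMA library at 722 TPM. The log2 ratio to SMA was -0.68 against a spread of 0.36, and after median-of-ratios scaling the sums overlapped (599.5 to 737 against 671 to 1213). With mitochondrial genes removed they stayed apart. Against WT the log2 ratio was -0.07 and the groups overlapped.

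By limma 0 of the 36 tested members were called between SMA+SMN-C3 and SMA at an adjusted p under 0.05, against 0.0648% of all tested genes. At an unadjusted p under 0.05, 10 were lower and 0 higher, against 7.94% and 0.590% of all tested genes. In 12 genes all SMN-C3 libraries were below all SMA libraries and in 0 above, against 18.2% and 2.52%. After median-of-ratios scaling 7 of the 12 stayed apart, and with mitochondrial genes removed 10 did. The median change was -0.40, against -0.23 over all tested genes, with 10 above 0 and 26 below, against 26.6% of all tested genes above 0. With array weights 4 of 36 members were called, all lower (Hist1h4h, Hist1h4i, Hist1h1c and Hist3h2a), where 2.15% of all tested genes were called. Without the 2 libraries of highest mitochondrial share Hist1h4h alone was called, where 1.09% of all tested genes were.

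Hist1h4h was at 11.0, 7.18 and 7.94 TPM with SMN-C3, which was below the SMA range of 22.0 to 26.95 TPM and overlapped WT. The log2 change from SMA was -1.41 (SE 0.36, adjusted p 0.19, limma), and the groups were apart under every scaling. With array weights the adjusted p was 0.0094, without the libraries of highest mitochondrial share it was 0.034, and over all settings it was at most 0.63. Hist1h4i was at 5.88, 2.06 and 0.814 TPM, again all below the SMA range. It had a log2 change of -1.60 (SE 0.55, adjusted p 0.43, limma).

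Hist3h2a was at 41.5, 50.9 and 36.3 TPM with SMN-C3, below the SMA range under every scaling (log2 change -0.66, SE 0.23, adjusted p 0.43, limma). Hist1h1c was at 24.2, 25.8 and 22.6 TPM, and all SMN-C3 libraries were below all SMA libraries. That gap was lost after median-of-ratios scaling, and the log2 change was -0.91 (SE 0.33, adjusted p 0.46, limma).

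Other abundant genes lay nearer to the SMA range or within it. Hist2h2aa1 was at 80.4, 89.7 and 73.6 TPM with SMN-C3, with its highest library just under SMA 1 at 90.4 TPM, and it overlapped SMA under both other scalings (log2 change -0.59, SE 0.35, adjusted p 0.69, limma). Hist1h2ap was at 204, 297 and 242 TPM and overlapped SMA (log2 change -0.69, SE 0.55, adjusted p 0.79, limma). Hist3h2ba, at 108, 117 and 86.9 TPM, and Hist1h2bc, at 54.8, 39.0 and 46.3 TPM, overlapped SMA too.

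Some low members also lay below SMA, and others overlapped it. Hist1h3i, the H3 gene with the lowest log2 change of the 36, was at 4.92, 1.35 and 2.08 TPM in SMA and was listed at 0 in all 3 SMN-C3 libraries. Its fitted log2 change of -1.81 (SE 0.59, adjusted p 0.38, limma) depends on the pseudocount and is no bound. Hist1h3i also shared 85.3% of its 31-base words with Hist1h3h, so the split between these copies is uncertain. Hist1h4c, an H4 gene, was at 0.562 to 2.47 TPM in SMA and 0 to 0.0853 TPM with SMN-C3 (log2 change -1.23, SE 0.50, adjusted p 0.53, limma). Hist1h2ai was listed at 0 in 2 SMN-C3 libraries and was at 4.73 TPM in the other, which overlapped SMA (log2 change -1.73, SE 0.79, adjusted p 0.57, limma, and -2.57 without SMA+SMN-C3 3). Hist1h2bg was at 0 to 1.80 TPM, below all SMA libraries (log2 change -1.08, SE 0.49, adjusted p 0.57, limma).

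**Figure D5:**
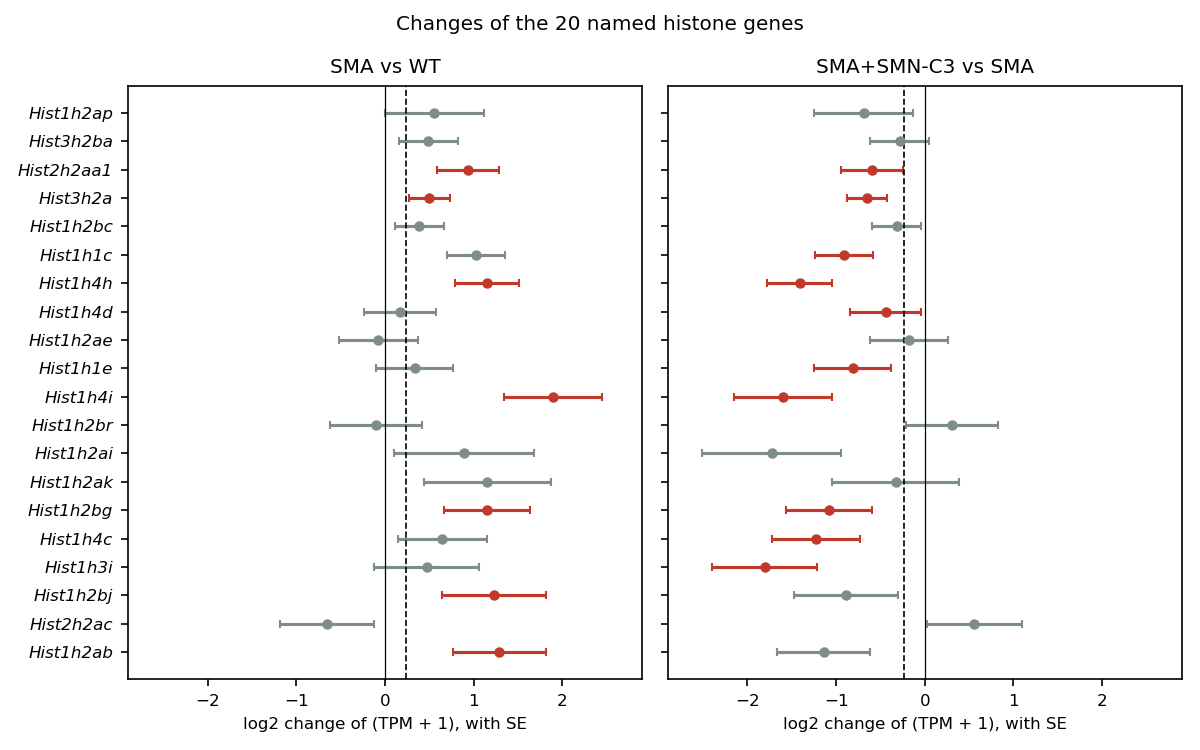
Log2 change of TPM + 1 with its standard error (horizontal axes) for the 20 named histone genes, ordered by mean TPM, in SMA against WT (left) and in SMA+SMN-C3 against SMA (right); red marks genes whose 2 groups of 3 libraries do not overlap in deposited TPM, and the dashed line is the median of all tested genes. Both panels share the SMA libraries. Hist1h4i is farthest right on the left panel at 1.89 and Hist1h3i farthest left on the right panel at -1.81, and none of these changes was called.

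Pifithrin-alpha, which targets p53, was compared with SMA in the same way. The summed TPM was 747, 653 and 359 (mean 586 ± 203), and SMA+Pifithrin-alpha 1 lay above SMA 1, so the groups overlapped in deposited TPM (log2 ratio -0.75 against a spread of 0.53). After median-of-ratios scaling all Pifithrin-alpha libraries were below all SMA libraries. The 56 genes without a poly(A) signal summed to 475, 395 and 191 TPM, all below the lowest SMA library at 484 TPM. With mitochondrial genes removed this sum overlapped SMA. The 14 genes with a signal summed to 272, 258 and 168 TPM and overlapped SMA under every scaling. By limma 0 of 36 members were called, against 0.00648% of all tested genes. With array weights 7 of 36 were called, 2 higher and 5 lower, where 33.4% of all tested genes were called. The unadjusted p was under 0.05 for 5 lower and 0 higher members, against 7.55% and 3.16%. In 3 genes all Pifithrin-alpha libraries were below all SMA libraries and in 1 above, against 9.76% and 5.53%. These counts were 1 below and 2 above after median-of-ratios scaling, and 1 below and 1 above with mitochondrial genes removed. The median change was -0.37, against -0.22 for all tested genes, with 11 members above 0 and 25 below, against 34.4% of all tested genes above 0.

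Hist1h2ap was at 253, 193 and 49.1 TPM with Pifithrin-alpha, all below the lowest SMA library at 293 TPM, and stayed so under both other scalings. The log2 change was -1.55 (SE 0.55, adjusted p 0.46, limma). Without SMA+Pifithrin-alpha 3, the library with the lowest level, the change was -0.84, and over all settings it ranged from -2.01 to -0.84. Hist2h2aa1, at 102.8, 89.4 and 39.4 TPM, overlapped SMA through SMA 1 (log2 change -0.77, SE 0.35, adjusted p 0.46, limma). Hist1h1e was at 7.26, 7.20 and 2.01 TPM against 7.51 to 17.6 TPM in SMA, apart in deposited TPM only (log2 change -0.98, SE 0.44, adjusted p 0.46, limma).

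The H4 gene Hist1h4i and the linker gene Hist1h1c lay above WT with Pifithrin-alpha. The linker gene Hist1h1e went the other way, with all Pifithrin-alpha libraries below all WT libraries in deposited TPM. Hist1h4i was at 8.45, 10.2 and 8.76 TPM with Pifithrin-alpha, within the SMA range and above all WT libraries (log2 change from WT 1.88, SE 0.55, adjusted p 0.56, limma, and 1.15 without WT 1). Hist1h1c was at 43.6, 36.9 and 46.4 TPM, again above all WT libraries (log2 change 0.89, SE 0.33, adjusted p 0.77, limma). Hist1h4h spread widely, at 31.04, 18.6 and 12.2 TPM, and its lowest library fell below WT 1.

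Against WT, 0 of 36 members were called with Pifithrin-alpha by limma, against 0.117% of all tested genes. With array weights 12 of 36 were called, 9 higher and 3 lower, where 24.4% of all tested genes were called. With an unadjusted p under 0.05 there were 5 higher and 0 lower members, against 4.11% and 1.67%. All 3 libraries were above all WT libraries in 3 genes and below in 2, against 4.79% and 2.07%. After median-of-ratios scaling 5 were above, 2 of them among those 3, and with mitochondrial genes removed 4 were above, again 2 of them among those 3. The changes of 21 members were above 0 and of 15 below, against 52.0% of all tested genes above 0. SMA+Pifithrin-alpha 3, whose mitochondrial share was 20.4%, stood apart: it had the lowest sum of all 15 libraries, but within it Hist1h2bc (72.7 TPM) and Hist1h1c were high, and Hist1h2ap made up 13.7% of the sum, against 25.8% to 54.3% in the other libraries.

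With MW150, which targets p38, the summed TPM was 1237, 815 and 1167 (mean 1073 ± 226), which overlapped SMA (log2 ratio 0.12 against a spread of 0.42). By limma 0 of 36 members were called between SMA+MW150 and SMA, against 0.00648% of all tested genes. The unadjusted p was under 0.05 for 1 higher and 1 lower member, against 1.51% and 0.389%. In 2 genes all MW150 libraries were above all SMA libraries and in 2 below, against 7.53% and 3.41%. The median change was 0.16, against 0.06 for all tested genes, with 25 members above 0 and 11 below, against 57.9% above 0. Hist2h2ac, a low H2A gene, was at 3.14, 0.400 and 1.64 TPM with MW150 and at 0 to 0.253 TPM in SMA (log2 change 1.20, SE 0.53, adjusted p 1 by limma). Hist1h3i was at 0, 0.757 and 0.617 TPM, below all SMA libraries (log2 change -1.30, SE 0.59, adjusted p 1 by limma).

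The MW150 libraries were then set against WT. The 14 genes with a poly(A) signal summed to 299, 343 and 317 TPM, all above the WT maximum of 220.1 TPM. The 56 genes without a signal summed to 938, 472 and 850 TPM and overlapped the WT range of 274 to 662 TPM. The sum of all 70 genes overlapped WT as well, and both overlaps held under every scaling. By limma 0 of 36 members were called, against 0.143% of all tested genes. With an unadjusted p under 0.05 there were 6 higher and 0 lower members, against 9.56% and 0.668%. In 11 genes all MW150 libraries were above all WT libraries and in 0 below, against 17.9% and 2.0%, and after median-of-ratios scaling 6 of the 11 stayed apart. The median change was 0.61 against 0.31 for all tested genes, with 34 members above 0 and 2 below, against 74.8% of all tested genes above 0.

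Hist1h4h was at 18.2, 39.5 and 30.7 TPM with MW150, above WT in deposited TPM but not after median-of-ratios scaling (log2 change 1.34, SE 0.36, adjusted p 0.29, limma). Hist2h2aa1 was at 149, 128 and 186 TPM, above WT under every scaling (log2 change 1.25, SE 0.35, adjusted p 0.32, limma). Hist1h4i was at 6.25, 6.37 and 11.1 TPM (log2 change 1.66, SE 0.55, adjusted p 0.42, limma, and 0.93 without WT 1). Hist1h1c was at 48.5, 52.3 and 39.2 TPM, also above all WT libraries (log2 change 1.02, SE 0.33, adjusted p 0.38, limma). Hist3h2a was at 70.5, 75.4 and 75.8 TPM, above WT in deposited TPM but not after median-of-ratios scaling (log2 change 0.63, SE 0.23, adjusted p 0.44, limma). With array weights Hist1h4h, Hist2h2aa1 and Hist3h2a were called, 3 of 36 members, where 1.61% of all tested genes were called.

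Between SMA+SMN-C3 and WT, limma called 0 of 36 members, against 0.0194% of all tested genes. At an unadjusted p under 0.05, 0 were higher and 1 lower, Hist1h3i, against 2.23% and 5.08% of all tested genes. In 1 gene, Hist1h1e (6.83, 4.55 and 5.72 TPM), all SMN-C3 libraries were below all WT libraries, and in 0 above, against 8.82% and 4.03%. The changes of 22 members were above 0 and of 14 below, against 49.3% above 0. The 14 genes with a poly(A) signal summed to 206, 212 and 163 TPM, within the WT range.

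The factors that make histone mRNA ends were measured as well, from lists of related genes. Of 19 genes of the U7 snRNP and of histone 3′ end processing, 17 were tested and 0 were called in any of the 7 comparisons by limma. At an unadjusted p under 0.05, 1 was higher and 1 lower in SMA against WT, and 0 higher and 1 lower in SMN-C3 against SMA. Of all tested genes 10.6% were higher and 2.88% lower in the first comparison, and 0.590% and 7.94% in the second. Slbp, which encodes the stem-loop binding protein, was at 78.6 to 170 TPM over the 15 libraries. Lsm10 and Lsm11, which encode the Sm-like proteins specific to the U7 ring, were at 12.9 to 47.2 and 10.9 to 23.4 TPM. The shared Sm genes Snrpe (311 to 1399 TPM), Snrpb (64.1 to 238 TPM) and Snrpg (87.0 to 198 TPM) were the highest of the list. Casp8ap2, which encodes the processing factor FLASH, was at 3.73 to 17.3 TPM, and Zfp473, another U7 component, was at 0.0929 to 1.18 TPM and too low to be tested.

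Genes of histone transcription and histone mRNA decay (7 tested of 7) gave 0 calls as well. At an unadjusted p under 0.05 there were 1 higher and 1 lower in SMA against WT, beside 10.6% and 2.88% of all tested genes. In SMN-C3 against SMA 0 were higher and 1 lower, beside 0.590% and 7.94%. Npat, which activates histone gene transcription in S phase, was at 1.91 to 6.59 TPM. The highest 3 of the list were Lsm1 (29.99 to 63.3 TPM), a decay factor, and the terminal uridyltransferase genes Tut7 (11.3 to 44.6 TPM) and Tut4 (4.33 to 89.8 TPM), both with their maximum in WT 1.

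Replication-independent histone genes, which a non-dividing cell uses, had a higher summed TPM than the 70 clustered genes in each of the 15 libraries. Their 11 genes were all tested with 0 calls. At an unadjusted p under 0.05, 1 was higher in SMA against WT, beside 10.6% of all tested genes. In SMN-C3 against SMA 1 was lower, beside 7.94%. H2afz was at 437 to 1494 TPM, H3f3a at 235 to 441 TPM and H3f3b at 223 to 520 TPM. H2afx, whose mRNA can be made in both forms, was at 25.4 to 101 TPM, lowest in the libraries of highest mitochondrial share, SMA+Pifithrin-alpha 3 and WT 1. H2afx also held a stem-loop match in its annotated transcript.

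Genes of S phase and division (25 tested of 25) gave 0 calls. At an unadjusted p under 0.05, 3 were higher and 1 lower in SMA against WT, beside 10.6% and 2.88% of all tested genes. In SMN-C3 against SMA 0 were higher and 4 lower, beside 0.590% and 7.94%. The proliferation marker Mki67 was at 0.530 to 2.72 TPM and the topoisomerase gene Top2a at 2.29 to 10.7 TPM. Pcna, a clamp of the replication fork, was at 40.5 to 99.4 TPM and Ccne1, the cyclin E1 gene, at 9.02 to 34.8 TPM. Cdc45, a replication helicase factor, was at 153 TPM in WT 1 and at 0.780 to 8.89 TPM elsewhere. The summed level of the list was 337, 159 and 175 TPM in WT and 164, 182 and 203 TPM in SMA. It was 128, 140 and 162 TPM with SMN-C3, 180 to 225 TPM with MW150 and 150 to 174 TPM with Pifithrin-alpha. In deposited TPM all SMN-C3 libraries were thus below all SMA libraries, as they were for the summed TPM of the 70 histone genes. In WT 1 the list sum was highest, with 153 TPM of it from Cdc45 alone, and the histone sum was second lowest. How the list and histone sums relate was not tested.

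Markers of other cells were summed in each library as well. The summed level of 9 oligodendrocyte lineage genes ranged from 646 to 1910 TPM in WT, 733 to 3848 TPM in SMA, 856 to 5353 TPM with MW150, 417 to 1213 TPM with Pifithrin-alpha and 566 to 1654 TPM with SMN-C3. The 5 libraries with the highest Hist1h2ap level were also the 5 with the highest oligodendrocyte sum. They were SMA 2, SMA+MW150 1, SMA+MW150 3, WT 2 and SMA 3. Other libraries ranked differently: SMA+SMN-C3 2 was at rank 6 by Hist1h2ap and 14 by this sum, and SMA+SMN-C3 1 at 12 and 6. The myelin genes Mbp, at 182 to 3353 TPM, and Mog, at 5.66 to 138 TPM, were present in every library. None of the 9 was called in any comparison. The red blood cell list, 6 genes, was spread in a like way, at 676 to 2261 TPM in WT, 789 to 3549 TPM in SMA, 841 to 1943 TPM with MW150, 531 to 1318 TPM with Pifithrin-alpha and 300.3 to 1652 TPM with SMN-C3. Their part in the level of Hist1h2ap was not tested.

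Microglial markers moved with the comparison of SMA and WT. The 10 genes summed to 33.3 to 55.9 TPM in WT, 109 to 156 TPM in SMA, 85.7 to 124 TPM with MW150, 29.7 to 79.3 TPM with Pifithrin-alpha and 48.8 to 76.8 TPM with SMN-C3. All SMA libraries were thus above all WT and all SMN-C3 libraries. The complement gene C1qc was at 4.28 to 8.91 TPM in WT and 19.6 to 30.2 TPM in SMA. It was the 1 gene of 9 tested that was called, against 0.363% of all tested genes. The complement gene C1qb was at 3.76 to 37.9 TPM over the 15 libraries. The 8 astrocyte genes summed to 747 to 1461 TPM in WT, which overlapped the 1351 to 1839 TPM in SMA. Their changes were above 0 in 8 of 8, against 66.5% of all tested genes. The part of these cells in the histone levels was not tested.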

How the data were processed

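RNA abundance was measured in 15 libraries in 5 groups of 3. The authors deposited TPM values per gene and per transcript, and the submitters' processing notes name kallisto 0.44.0 and the builds GRCm38.p6 and mm10. Each library sums to 1000000 TPM. TPM keeps no read counts, so the depth is unknown, no interval or detection floor is given, and count models were not used. Of 118489 transcripts, 116728 (98.5%) matched GENCODE M21 on GRCm38, which supplied positions, transcript ends and shared 31-base words, and all 70 histone genes matched.

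The 15425 genes that reached 1 TPM in 3 or more libraries were tested as log2(TPM+1) with limma 3.58.1 in R 4.3.3, with 1 mean per group, a trend on the mean and Benjamini-Hochberg adjustment within each of 7 comparisons, two-sided, called at an adjusted p under 0.05. The test was tried on simulated data. Sums over genes are descriptions without a test. P-values set a change against 1 spread per gene, pooled over the libraries within all 5 groups and moderated towards the trend. A wide spread in 1 group thus enters every comparison. Tables used Python 3.11.15 and pandas 2.3.3, and figures matplotlib 3.10.9.

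The genes, lists and alternatives were chosen with earlier results of these data known. Named histone genes are the 12 of highest mean TPM, any called, the 5 of largest change in SMA against WT and in each treated group against SMA, and any with an unadjusted p under 0.01, which gave 20. Others are given by counts, except where a count of 1 is named. Of other lists, called genes, the 3 of highest mean TPM and fixed pathway genes are named. Zcchc6 and Zcchc11 were listed under their current symbols Tut7 and Tut4, and Rnu7 was not analysed here. Marker genes beyond this rule (Chat, Mog) were named as defining markers. Alternatives were a pseudocount of 0.1 TPM, no filter, a mean of at least 5 TPM, median-of-ratios scaling, removal of mitochondrial genes, array weights, only the 2 groups, a replicate block, the transcript table, the sum without Hist1h2ap, and leaving out each library. Leaving out WT 1 and SMA+Pifithrin-alpha 3 together, and counting a poly(A) signal in any transcript of a gene, were added after seeing the data.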

Additional observations from a re-analysis of the deposited data

How the results depend on the processing

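With array weights limma called 1 histone gene in SMA against WT, 7 in SMA+Pifithrin-alpha and 4 in SMA+SMN-C3 against SMA, and 3 in SMA+MW150 and 12 in SMA+Pifithrin-alpha against WT, where 0 were called without weights. The estimation of the weights stopped before its tolerance was reached, and with them 1.05%, 33.4%, 2.15%, 1.61% and 24.4% of all tested genes were called in these comparisons, in the order given. The 7 histone genes called between SMA+Pifithrin-alpha and SMA stand beside 5155 genes of all tested, against 1 without weights. Without the 2 libraries of highest mitochondrial share 1 histone gene, Hist1h4h, was called between SMA+SMN-C3 and SMA, against 1.09% of all tested genes. The cause of these calls was not tested. Under every other setting run, leaving out each library included, 0 histone genes were called in any comparison. The median change and the summed TPM moved by less than the spread between replicates in every setting in which they were compared. The median change was not compared with array weights or with only the 2 groups. Over the settings that left out 1 library, the log2 ratio of sums ranged from 0.28 to 0.87 for SMA against WT, from -0.06 to 0.45 for SMA+MW150, from -0.96 to -0.42 for SMA+Pifithrin-alpha and from -0.86 to -0.35 for SMA+SMN-C3 against SMA. Median-of-ratios scaling moved the median of all tested genes from 0.24 to 0.04 in SMA against WT, from -0.22 to -0.02 and from -0.23 to -0.00 in SMA+Pifithrin-alpha and SMA+SMN-C3 against SMA, and from 0.31 to 0.04 in SMA+MW150 against WT, and the histone medians there became 0.31, -0.17, -0.21 and 0.33. Of 33 single-gene changes printed, none changed direction, and 22 kept their side of the threshold in every setting run. With a pseudocount of 0.1 TPM the changes of low genes were farther from 0, that of Hist1h4i in SMA against WT being 3.09 in place of 1.89. The replicate numbers did not pair the libraries: of 30 same-numbered pairs 4 had a correlation of deviations over 0.1, and 4 of 15 libraries correlated best with their own number. With a replicate block 0 histone genes were called in each comparison. Unknown depth and shared sequence limit the low genes.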
